A study of Arabidopsis thaliana with 12 samples.

Results

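CUC1, CUC2, CUC3, ESR1, ESR2 and RAP2.6L are 6 transcription factor genes of Arabidopsis thaliana that act at organ boundaries or in shoot regeneration. They were chosen by locus (AT3G15170, AT5G53950, AT1G76420, AT1G12980, AT1G24590 and AT5G13330) as the array annotation gives it. The choice was made with earlier results of these data known, and all 6 are described whatever their values. Each had 1 probe on the array, and all 6 were among the 21347 genes tested. Transcript levels came from 12 one-colour arrays in 4 groups of 3, all of the Col-0 accession on solid MS medium. 35S:WIND1 callus was callus-like tissue of untreated plants that expressed the WIND1 gene from the 35S promoter, which is active in most cells. T87 callus was wild-type callus of a single cultured cell line, T87, on medium with 500 nM of the synthetic auxin NAA. 2,4-D-induced callus was wild-type callus kept with 500 µg/L of the synthetic auxin 2,4-D. The controls were untreated wild-type seedlings 14 days old. Each array was labelled as a different callus or plant.

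The CUC genes encode NAC transcription factors that are expressed where organs separate from each other and from the meristem, and plants without CUC1 and CUC2 fuse their cotyledons and form no shoot meristem. The microRNA miR164 targets CUC1 and CUC2 transcripts but not those of CUC3. ESR1 and ESR2 encode related AP2/ERF factors that promote shoot formation from cultured tissue when overexpressed, and ESR2 is known to activate CUC1. RAP2.6L encodes an ERF factor of another subgroup that is needed for efficient shoot regeneration from root explants. WIND1, an AP2/ERF factor induced by wounding, is known to bind the ESR1 promoter and activate it.

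A level is the log2 of a spot's processed signal minus that of the array's 75th percentile, so 0 equals that percentile, and levels of different probes were not compared. A gene was called where limma gave a Benjamini-Hochberg adjusted p under 0.05 over all genes tested and the change was at least 2-fold. All adjusted p-values are from that fit. Arrays of 1 group correlated across genes with r between 0.944 and 0.991, with the lowest values in 35S:WIND1 callus, where the median gene had an SD of 0.36 against 0.11 in the seedlings. WIND1 itself had levels of 3.90, 3.20 and 3.62 in 35S:WIND1 callus, against 1.20, 1.37 and 1.22 in the seedlings. The 6 markers of photosynthetic tissue summed to 3618% to 6143% of the 75th percentile in 35S:WIND1 callus. The sum was 3105% to 5116% in T87 callus but 230% to 561% in 2,4-D-induced callus, against 26780% to 34494% in the seedlings. All 3 shoot meristem markers (WUS, CLV3 and STM) were well above background on every 35S:WIND1 array, and on every T87 array WUS and CLV3 were. WUS and CLV3 were so on no array of 2,4-D-induced callus or seedlings, and both were called higher in T87 callus than in the seedlings (at least 3.83-fold and at least 2.31-fold, adjusted p = 0.000265 and 0.0175). Fewer cells of a type and less RNA per cell cannot be told apart in such bulk samples. Each slide held 1 array of every group, always at the same position, so that effects of the position cannot be told apart from those of the group.

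All 6 genes were called higher in 35S:WIND1 callus than in the seedlings. Of all genes tested in that comparison, 12.5% were called higher, 19.6% lower and 32.1% in either direction. In T87 callus 4 genes were called higher than in the seedlings and 1 lower, where 47.4% of all genes were called (20.8% higher and 26.5% lower). The counts were also 4 and 1 in 2,4-D-induced callus, where 42.8% of all genes were called (18.6% higher and 24.2% lower). CUC1, CUC2, ESR1 and RAP2.6L were the 4 genes called higher in all 3 calli, a pattern held by 4.29% of 21343 genes with a value in each comparison. The other members split: CUC3 was higher in 35S:WIND1 callus and lower in T87 and 2,4-D-induced callus, and ESR2 was called in 35S:WIND1 callus only, with differences between calli given below. On the log2 scale the median change of the 6 genes over the seedlings was 4.78 in 35S:WIND1 callus, beside 0.069 for all genes. It was 2.93 in T87 callus, beside -0.0036, and 3.61 in 2,4-D-induced callus, beside 0.15.

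The arrays of callus and seedlings overlapped for none of the 6 genes in 35S:WIND1 and in T87 callus, and for 1 of them, ESR2, in 2,4-D-induced callus. Over all genes, 63.0%, 82.0% and 79.9% did not overlap in these comparisons.

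**Figure D1:**
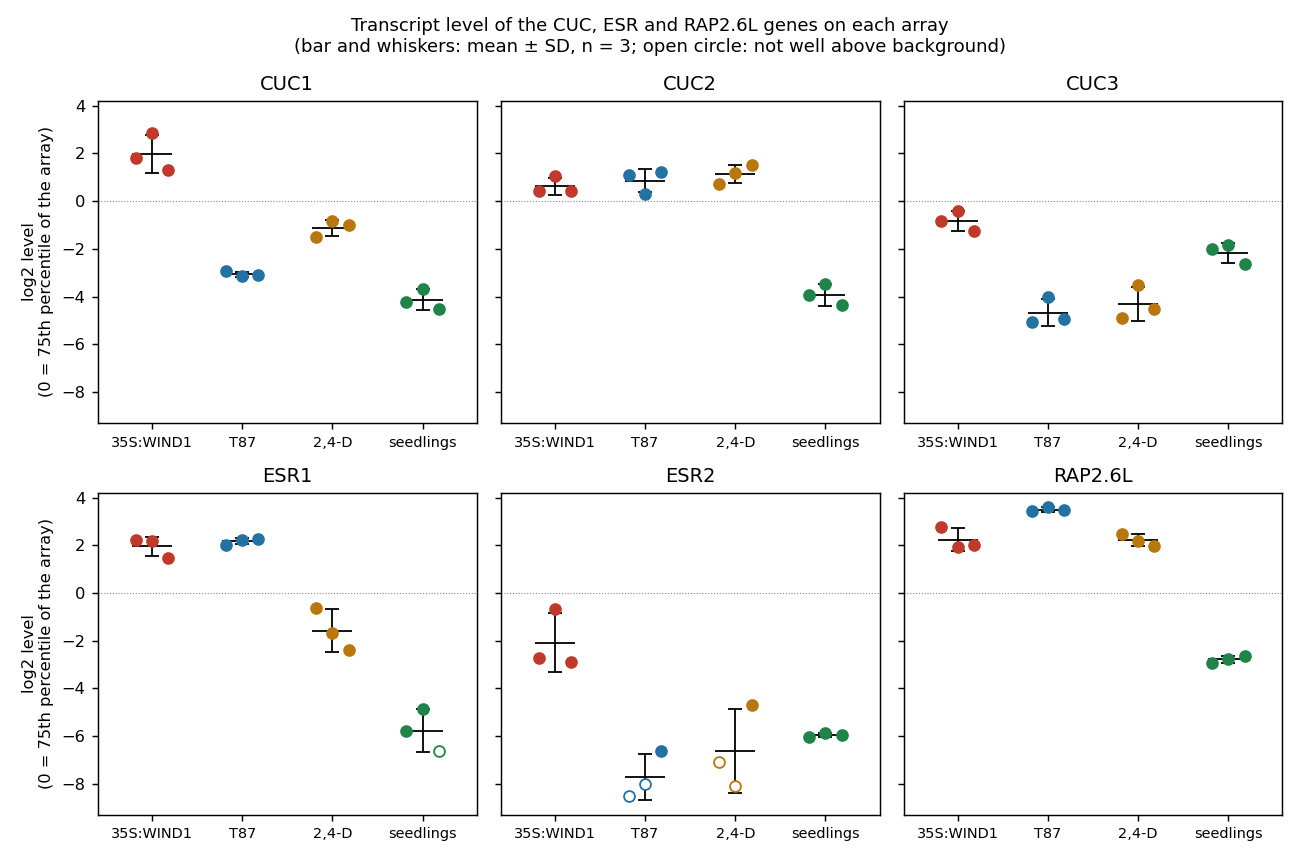
Log2 level (vertical axis, 0 at the array's 75th percentile) of the 6 genes on each of 12 arrays, by group, with the mean and SD of 3 arrays as bar and whiskers and open circles for spots not well above background. CUC2 and RAP2.6L were high in all 3 calli, and CUC3 and ESR2 had their highest levels in 35S:WIND1 callus.

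CUC1 differed between all 4 groups. Its levels were 1.80, 2.86 and 1.29 in 35S:WIND1 callus, -2.94, -3.13 and -3.10 in T87 callus and -1.48, -0.85 and -0.999 in 2,4-D-induced callus, against -4.22, -3.66 and -4.53 in the seedlings. No array of 1 group overlapped those of another. Against the seedlings, CUC1 was 69.5-fold higher in 35S:WIND1 callus (log2 change 6.12, SE 0.37, adjusted p = 1.3e-06). In 2,4-D-induced callus it was 8.16-fold higher (adjusted p = 5.06e-05), and in T87 callus 2.12-fold higher (log2 change 1.08, adjusted p = 0.0233). Between calli, CUC1 was 32.8-fold higher in 35S:WIND1 than in T87 callus (adjusted p = 2.34e-06), 8.53-fold higher in 35S:WIND1 than in 2,4-D-induced callus (adjusted p = 9.43e-05) and 3.85-fold lower in T87 than in 2,4-D-induced callus (adjusted p = 0.00109). The small rise in T87 callus over the seedlings was no longer called without T87 replicate 1 (log2 change 1.02, adjusted p = 0.0632), seedling replicate 1 (1.04, 0.0619) or seedling replicate 3 (0.89, 0.0856), nor with the deposited series values (1.06, 0.0683). With normexp background correction it was 0.19, and the calls of 2,4-D-induced callus over the seedlings (1.37, adjusted p = 0.135) and of T87 over 2,4-D-induced callus (-1.18, adjusted p = 0.209) were lost as well.

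CUC2 was high in every callus, at levels that the arrays did not separate. It had 0.43, 1.04 and 0.42 in 35S:WIND1 callus, 1.08, 0.30 and 1.21 in T87 callus and 0.72, 1.20 and 1.50 in 2,4-D-induced callus, against -3.93, -3.45 and -4.37 in the seedlings. All 9 callus arrays lay above all seedling arrays, and the 3 calli overlapped. The rise over the seedlings was 23.4-fold in 35S:WIND1 callus (log2 change 4.55, SE 0.33, adjusted p = 3.55e-06), 27.5-fold in T87 callus (4.78, adjusted p = 8.63e-07) and 33.3-fold in 2,4-D-induced callus (5.06, adjusted p = 6.69e-07). None of the 3 differences between calli passed the test. They were -0.23 for 35S:WIND1 over T87 callus (95% interval -0.96 to 0.49), -0.51 for 35S:WIND1 over 2,4-D-induced callus (-1.24 to 0.22) and -0.28 for T87 over 2,4-D-induced callus (-1.01 to 0.45), with adjusted p = 0.561, 0.219 and 0.486 in that order.

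CUC3, the gene of the family without a miR164 site, moved in opposite directions. Its levels were -0.82, -0.43 and -1.25 in 35S:WIND1 callus, -5.07, -4.02 and -4.93 in T87 callus and -4.88, -3.51 and -4.53 in 2,4-D-induced callus, against -2.01, -1.84 and -2.63 in the seedlings. The 35S:WIND1 arrays were all above the seedlings, and the arrays of the other two calli were all below them. CUC3 was 2.51-fold higher in 35S:WIND1 callus (log2 change 1.33, SE 0.41, adjusted p = 0.0195), 5.70-fold lower in T87 callus (-2.51, adjusted p = 0.000315) and 4.42-fold lower in 2,4-D-induced callus (-2.14, adjusted p = 0.00098) than in the seedlings. The difference between calli was 14.3-fold for 35S:WIND1 over T87 callus (adjusted p = 2.65e-05) and 11.1-fold for 35S:WIND1 over 2,4-D-induced callus (adjusted p = 8.33e-05). T87 and 2,4-D-induced callus differed by -0.37 (95% interval -1.28 to 0.54, adjusted p = 0.461). The rise in 35S:WIND1 callus over the seedlings lost its call without 35S:WIND1 replicate 2 (1.12, adjusted p = 0.067) or seedling replicate 3 (1.09, 0.0737). With normexp it was 0.84 (adjusted p = 0.46), and the calls of T87 callus over the seedlings (-1.54, 0.103), of 2,4-D-induced callus over the seedlings (-1.12, 0.244) and of 35S:WIND1 over 2,4-D-induced callus (1.96, 0.0715) were lost too.

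ESR1 had the largest rise of the 6 genes over the seedlings, in 35S:WIND1 and in T87 callus alike. Its levels were 2.20, 2.18 and 1.48 in 35S:WIND1 callus, 2.03, 2.23 and 2.26 in T87 callus and -0.64, -1.69 and -2.40 in 2,4-D-induced callus, against -5.80, -4.87 and -6.64 in the seedlings. Seedling replicate 3 was not well above background, so the folds over the seedlings rest in part on a signal at background. In processed signal units before scaling, the 35S:WIND1 arrays read 11950, 16784 and 6291, and the seedling arrays 41.8, 60.1 and 21.9. ESR1 was 211-fold higher in 35S:WIND1 callus (log2 change 7.72, SE 0.49, adjusted p = 1.89e-06), 246-fold higher in T87 callus (7.94, adjusted p = 4.9e-07) and 18.3-fold higher in 2,4-D-induced callus (4.19, adjusted p = 4.07e-05) than in the seedlings. 35S:WIND1 and T87 callus did not differ beyond their spread (-0.22, 95% interval -1.33 to 0.88, adjusted p = 0.723). 35S:WIND1 callus was 11.5-fold higher than 2,4-D-induced callus (adjusted p = 0.000268), and T87 callus was 13.4-fold higher than it (adjusted p = 9.94e-05). With normexp, ESR1 in 2,4-D-induced callus over the seedlings was 1.43 and no longer called (adjusted p = 0.123).

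ESR2 stood out in 35S:WIND1 callus. Its levels there were -2.72, -0.67 and -2.89, those in T87 callus -8.49, -8.02 and -6.62 and those in 2,4-D-induced callus -7.10, -8.08 and -4.68, against -6.04, -5.86 and -5.94 in the seedlings. Replicate 3 was the single array well above background in each of T87 and 2,4-D-induced callus, so most of their values have no order among themselves. ESR2 in 35S:WIND1 callus was 14.4-fold above the seedlings (log2 change 3.85, SE 0.87, adjusted p = 0.00428), 49.1-fold above T87 callus (5.62, adjusted p = 0.000335) and 23.1-fold above 2,4-D-induced callus (4.53, adjusted p = 0.00182). These 3 changes moved with single arrays: without 35S:WIND1 replicate 2 they were 3.14, 4.91 and 3.82 on the log2 scale. The third was 3.80 without 2,4-D replicate 2 and 5.50 without 2,4-D replicate 3, and the second was 6.16 without T87 replicate 3. With normexp they were 1.46, 2.27 and 1.68, and none was called (adjusted p = 0.364, 0.12 and 0.302). T87 callus and the seedlings differed by -1.77 (95% interval -3.71 to 0.18, adjusted p = 0.0943), which was called without 2,4-D replicate 3 (adjusted p = 0.0352) or when only these groups were fitted (adjusted p = 0.0149). The difference of 2,4-D-induced callus from the seedlings was -0.68 (-2.62 to 1.27, adjusted p = 0.512), and that of T87 from 2,4-D-induced callus -1.09 (-3.03 to 0.86, adjusted p = 0.305).

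RAP2.6L had the smallest errors of the 6 genes and was called in every callus. Its levels were 2.78, 1.94 and 2.00 in 35S:WIND1 callus, 3.42, 3.60 and 3.48 in T87 callus and 2.47, 2.17 and 1.97 in 2,4-D-induced callus, against -2.93, -2.78 and -2.62 in the seedlings. All T87 arrays were above those of the other calli, which overlapped each other. RAP2.6L was 32.5-fold higher in 35S:WIND1 callus (log2 change 5.02, SE 0.22, adjusted p = 2.73e-07), 77.6-fold higher in T87 callus (6.28, adjusted p = 1.94e-08) and 31.6-fold higher in 2,4-D-induced callus (4.98, adjusted p = 7.4e-08) than in the seedlings. It was 2.39-fold lower in 35S:WIND1 than in T87 callus (adjusted p = 0.000768) and 2.45-fold higher in T87 than in 2,4-D-induced callus (adjusted p = 0.000569). The first of these was no longer called with the deposited series values (-0.74, adjusted p = 0.0477), where it fell short of 2-fold. 35S:WIND1 and 2,4-D-induced callus differed by 0.038 (95% interval -0.46 to 0.53, adjusted p = 0.903).

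The calli were also set directly against each other. In 35S:WIND1 over T87 callus 3 of the 6 genes were called higher and 1 lower, with 36.8% of all genes called (20.0% higher and 16.8% lower). In 35S:WIND1 over 2,4-D-induced callus 4 were called higher and none lower, with 28.5% of all genes called (16.8% higher and 11.7% lower). In T87 over 2,4-D-induced callus 2 were called higher and 1 lower, with 38.9% of all genes called (19.7% higher and 19.2% lower). CUC1, CUC3 and ESR2 were called higher in 35S:WIND1 callus than in both other calli. The arrays did not overlap for 4 of the 6 genes in 35S:WIND1 against T87 callus, for 4 in 35S:WIND1 against 2,4-D-induced callus and for 3 in T87 against 2,4-D-induced callus. Over all genes, 61.9%, 53.6% and 71.8% did not overlap in the same comparisons.

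**Figure D2:**
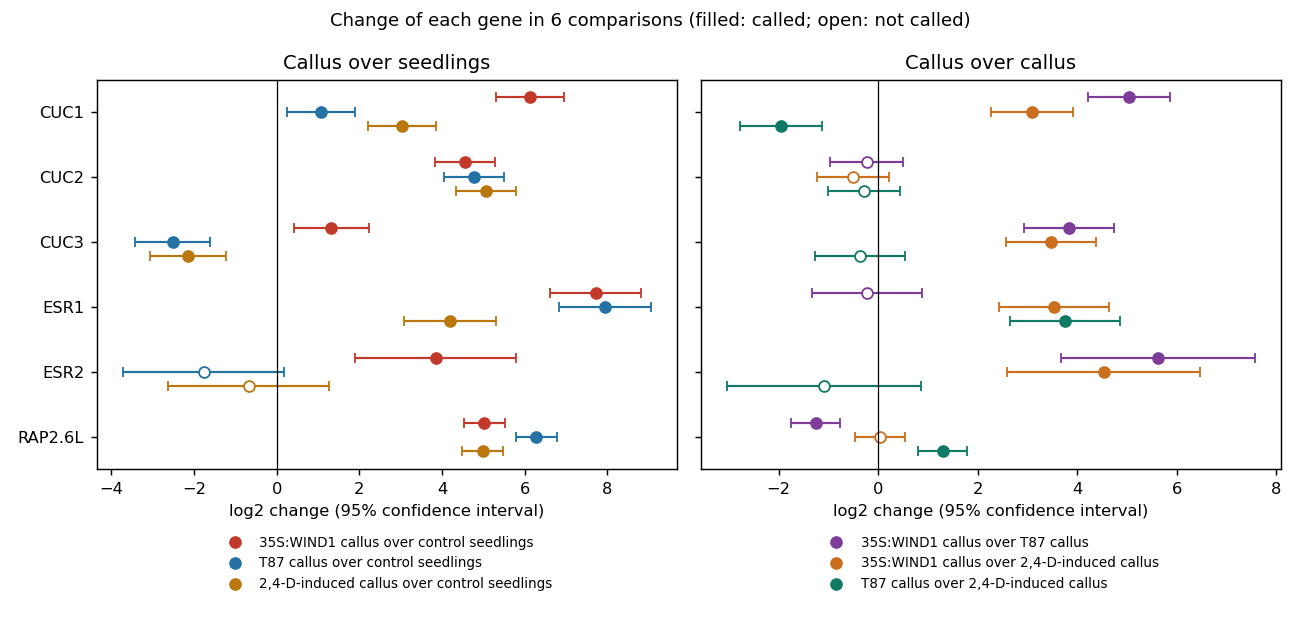
Log2 change of each gene with its 95% confidence interval (horizontal axis) for the 3 calli over the seedlings (left) and for the calli over each other (right), with filled points for called changes. For CUC2 every interval between calli includes 0, and CUC3 lies right of 0 in 35S:WIND1 callus over the seedlings and left of 0 in the other calli.

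The replicates of 35S:WIND1 callus spread along a shared order for part of the genes. Replicate 2 had the highest level for CUC1, CUC2, CUC3 and ESR2, and replicate 3 had the lowest for all but RAP2.6L. In the seedlings replicate 2 was highest for 5 of the 6 genes. ESR2 spread most, with an SD of 1.23 in 35S:WIND1 callus and 1.75 in 2,4-D-induced callus, against 0.091 in the seedlings. The summed shoot meristem markers ranged over 644% to 1690% of the 75th percentile in 35S:WIND1 callus. They had 6.74% to 11.98% in T87 callus, while 2,4-D-induced callus had 27.7% to 54.4%, against 54.1% to 74.4% in the seedlings. Summed markers of 3 other tissues were also highest, among the calli, in 35S:WIND1 callus. Epidermis markers (3 genes) summed to 177% to 306% there, 12.7% to 19.8% in T87 callus and 31.7% to 50.6% with 2,4-D, against 1340% to 1507% in the seedlings. Xylem markers (2 genes) summed to 239% to 1945%, 9.11% to 14.1% and 5.17% to 7.43% in the calli in the same order, against 224% to 284% in the seedlings. Phloem markers (3 genes) had 428% to 711%, 6.56% to 16.5% and 107% to 170%, against 705% to 803% in the seedlings. Of the phloem genes, 1 of 3 was called higher in 35S:WIND1 than in 2,4-D-induced callus and 2 were not called (median log2 change 0.29). All 3 were called higher in 35S:WIND1 than in T87 callus. PDF1 and SEOR1, markers of epidermis and phloem, were well above background on no T87 array. Summed markers of these 3 tissues and of the shoot meristem were, like CUC1, CUC3 and ESR2, highest among the calli in 35S:WIND1 callus. Their part in those results was not tested. Other lists differed. Root markers (5 genes) summed to 344% to 615% in 35S:WIND1 callus, 123% to 163% in T87 callus and 849% to 1110% with 2,4-D (2 arrays). LBD markers of callus (4 genes) summed to 3.98% to 8.96%, 113% to 118% and 170% to 199% in the same order, against 9.90% to 16.0% in the seedlings. LBD17, LBD18 and LBD29 were well above background on no array of 35S:WIND1 or T87 callus, where LBD16 was so on all. All 4 were so on every array of 2,4-D-induced callus.

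Genes that act with these regulators were taken from 7 lists of 50 genes, of which 45 were tested. Against the seedlings, 35S:WIND1 callus had 19 of these higher and 11 lower, T87 callus 13 higher and 23 lower, and 2,4-D-induced callus 16 higher and 17 lower. With normexp 13, 16 and 16 of the 45 were called in these comparisons, in place of 30, 36 and 33. Over all genes, normexp called 2859, 5155 and 4677, in place of 6847, 10117 and 9144. No test of a list was made, and the percentages and medians over all genes are those given above. The signs of the called genes named here held under median scaling, quantile normalization, the deposited series values and normexp, except that WIND4 turned its sign with normexp in 35S:WIND1 callus over the seedlings and over 2,4-D-induced callus.

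Among 10 upstream activators, 6 were higher and none lower in 35S:WIND1 callus, 5 higher and 2 lower in T87 callus, and 5 higher and none lower in 2,4-D-induced callus than in the seedlings. WIND4, 1 of the 2 lower in T87 callus, was well above background on no array of T87 callus or seedlings. The median changes were 1.96, 0.87 and 1.18. They were 1.57, 0.87 and 1.18 with bounds in place of changes where the dimmer group had no array well above background. WIND1 is itself 1 of the 10 and counts in these medians. Its level in 35S:WIND1 callus includes expression from the 35S promoter. PLT3, PLT5 and PLT7 encode AP2 factors known to promote CUC2 expression during regeneration. PLT7 was 26.2-fold, 4.35-fold and 19.0-fold higher in 35S:WIND1, T87 and 2,4-D-induced callus (adjusted p = 3.2e-07, 1.33e-05 and 1.64e-07). PLT3 was 6.17-fold, 2.87-fold and 33.2-fold higher (adjusted p = 8.09e-05, 0.00146 and 5.04e-07). PLT5 was 12.7-fold higher in 35S:WIND1 callus and 8.76-fold higher in 2,4-D-induced callus, and 7.28-fold lower in T87 callus, where 1 of 3 arrays was well above background (adjusted p = 0.000308, 0.000508 and 0.000826). WIND3, a relative of WIND1, was 21.5-fold, 59.2-fold and 31.1-fold higher in the 3 calli in the same order (adjusted p = 6.21e-06, 3.54e-07 and 1.19e-06). ARR1, ARR10 and ARR12, the cytokinin response regulators on the list, were called in no callus over the seedlings in the scaling used here. With median scaling all 3 were called higher in T87 callus, ARR1 and ARR10 in 2,4-D-induced callus and ARR10 in 35S:WIND1 callus, and ARR10 was also called in 35S:WIND1 callus with the deposited series values. With normexp PLT5 was called in no callus, and PLT7 not in T87 callus.

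The CIN-type TCP factors, which hold CUC genes down in leaves, were low in callus. All 5 were lower in 35S:WIND1 and in T87 callus than in the seedlings, and 4 were lower in 2,4-D-induced callus, with medians of -2.98, -3.28 and -4.43. With median scaling 4 were called in each callus, all lower. TCP4 was 23.8-fold lower in 35S:WIND1 callus, 9.72-fold lower in T87 callus and 21.6-fold lower in 2,4-D-induced callus (adjusted p = 2.06e-06, 5.79e-06 and 8.86e-07). TCP2 was 15.8-fold, 11.2-fold and 37.5-fold lower in the same order (adjusted p = 0.00219, 0.00294 and 0.000241), with 2 of 3 arrays of 2,4-D-induced callus well above background. TCP24 in 2,4-D-induced callus was the exception, at -0.71. These genes act in leaves, and the photosynthetic markers, all 6 lower in every callus, moved with them. Their part in the TCP changes was not tested.

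Of 4 other NAC genes targeted by miR164, none was called in 35S:WIND1 callus, while 2 were higher and 2 lower in T87 callus and 2 higher and 1 lower in 2,4-D-induced callus than in the seedlings. The medians were 0.83, 0.037 and 0.83. In 35S:WIND1 callus ORE1 and NAC080 were called higher with median scaling, and NAC1 as well with the deposited series values. The T87 median was 0.91 with median scaling. ORE1, a regulator of leaf senescence, was 4.96-fold higher in T87 callus and 13.3-fold higher in 2,4-D-induced callus (adjusted p = 0.0101 and 0.000639). NAC1, which acts in lateral root formation, was 7.04-fold lower in T87 callus (adjusted p = 0.00119). The genes that encode miR164 were not analysed here.

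Of 14 other boundary regulators, 35S:WIND1 callus had 7 higher and 3 lower than the seedlings, T87 callus 2 higher and 8 lower, and 2,4-D-induced callus 3 higher and 9 lower. Medians were 1.43, -1.98 and -2.08. They were 1.43, -1.40 and -1.39 with bounds in place of changes where the dimmer group had no array well above background. With normexp the counts were 4 higher and none lower, 1 higher and 2 lower, and 2 higher and 3 lower. STM, the meristem homeobox gene that CUC1 and CUC2 are known to switch on in embryos, was 13.1-fold higher in 35S:WIND1 callus (adjusted p = 0.000641). It was 116-fold lower in T87 callus (adjusted p = 5.03e-06), with 1 of 3 arrays well above background, and changed by -0.76 in 2,4-D-induced callus. STM is also a marker of the shoot meristem list. RAX1 and LAS, which act in axillary meristem formation, were 10.6-fold and 8.36-fold higher in 35S:WIND1 callus (adjusted p = 4.97e-05 and 0.000565). Mean LAS levels were -2.79, -6.77 and -2.21 in 35S:WIND1, T87 and 2,4-D-induced callus, against -5.85 in the seedlings, so LAS was also high with 2,4-D. Mean RAX1 levels were -0.0088, -1.69 and -4.30 in the same order, against -3.42. KNAT6 had mean levels of 0.94, 0.50 and 1.49, against -1.29 in the seedlings. LOB, which marks the base of lateral organs, was well above background on no array of T87 or 2,4-D-induced callus, and was at least 52.7-fold and at least 46.3-fold lower there (adjusted p = 5.01e-05 and 5.82e-05). ATH1 was 43.1-fold lower in T87 callus and at least 165-fold lower in 2,4-D-induced callus (adjusted p = 1.18e-05 and 6e-07). BOP2, which acts in leaf patterning and abscission, was 10.7-fold, 11.3-fold and 37.0-fold lower in 35S:WIND1, T87 and 2,4-D-induced callus (adjusted p = 0.00428, 0.00232 and 0.000194). With normexp the calls of LAS, LOB and BOP2 given here were lost. Set directly against the other calli, 9 boundary regulators were higher and none lower in 35S:WIND1 than in T87 callus, and 10 were higher and none lower in 35S:WIND1 than in 2,4-D-induced callus. With normexp 4 and 5 were higher and none lower.

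Of 3 genes known as targets of ESR2, OBP1 and CYCD1;1, which act in the cell cycle, were called in every callus over the seedlings. OBP1 was 59.4-fold higher in 35S:WIND1 callus and 65.7-fold higher in T87 callus (adjusted p = 0.000176 and 7.22e-05), with 2 of 3 seedling arrays well above background. In 2,4-D-induced callus it was called lower by log2 -2.37 (adjusted p = 0.0221), but 1 of 3 arrays there was well above background and the arrays overlapped those of the seedlings. That call was lost with median scaling (-1.63, adjusted p = 0.0769), quantile normalization (-1.98, 0.068) and normexp (-0.65, 0.369). CYCD1;1 was 3.16-fold, 7.28-fold and 7.58-fold lower in 35S:WIND1, T87 and 2,4-D-induced callus (adjusted p = 0.00222, 3.28e-05 and 3.27e-05), and was called in none with normexp. AHP6, an inhibitor of cytokinin signalling, changed by -0.50 in 35S:WIND1 callus and 0.61 in 2,4-D-induced callus, and was at least 4.47-fold lower in T87 callus (adjusted p = 1.74e-05). Among relatives of the ESR genes, PUCHI, an ERF factor of lateral root and floral development, was at least 9.99-fold lower in 35S:WIND1 callus and at least 9.83-fold lower in T87 callus (adjusted p = 2.44e-06 and 9.12e-07), and 21.1-fold higher in 2,4-D-induced callus (adjusted p = 3.63e-06). With normexp none of the PUCHI calls was kept, nor that of AHP6.

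Of 7 relatives of RAP2.6L in its ERF subgroup, 5 were higher and 1 lower in each of 35S:WIND1 and 2,4-D-induced callus than in the seedlings, and 3 were higher and 2 lower in T87 callus. With normexp 1 was called in each callus, higher. Medians were 2.11, 2.01 and -0.37 in that order. With bounds, as for the boundary regulators, they were 2.11, 1.75 and 0. The T87 median turned to 0.50 with median scaling and 0.51 with quantile normalization. ERF114 was 83.9-fold, 46.6-fold and 114-fold higher in 35S:WIND1, T87 and 2,4-D-induced callus (adjusted p = 6.97e-07, 4.23e-07 and 1.3e-07). ERF115, which is known for replenishing stem cells after damage in roots, was well above background on no seedling array, and was at least 9.82-fold higher in 35S:WIND1 callus and at least 3.36-fold higher in 2,4-D-induced callus (adjusted p = 0.000587 and 0.00394). ERF110 was 5.18-fold, 4.19-fold and 5.48-fold lower in 35S:WIND1, T87 and 2,4-D-induced callus (adjusted p = 0.00324, 0.00448 and 0.00173), and its T87 call was lost with median scaling and quantile normalization.

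**Figure D3:**
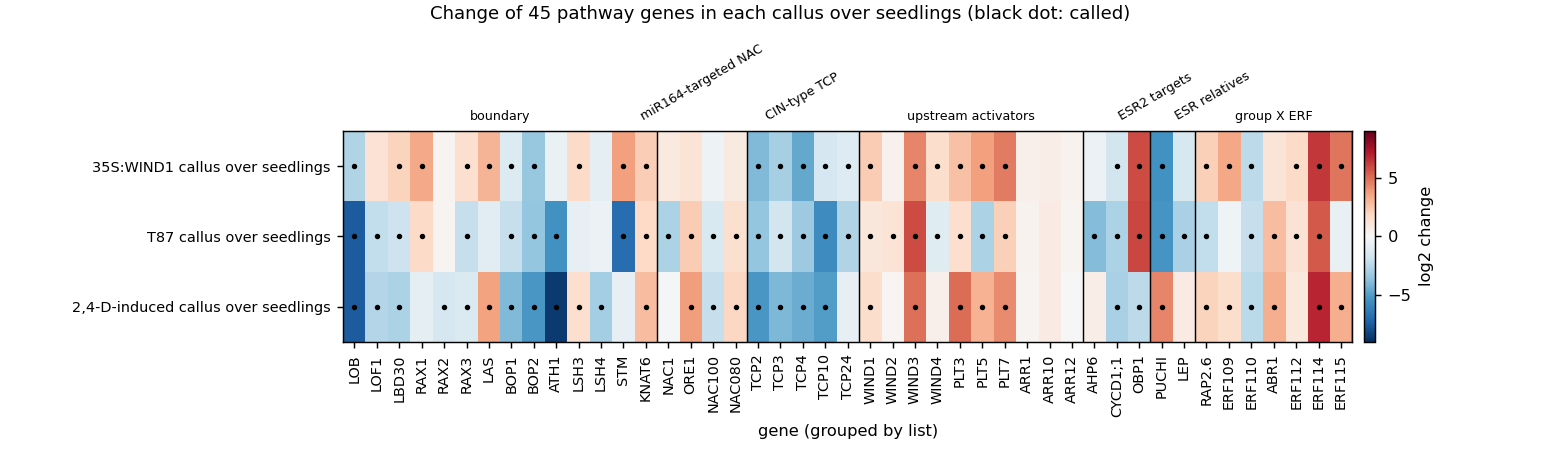
Log2 change over the seedlings (colour) of 45 genes from 7 lists (horizontal axis) in the 3 calli (rows), with a dot on called changes. The 5 TCP genes are blue in every callus, boundary regulators such as STM and LAS differ in colour between calli, and colours of genes not well above background show fitted changes rather than bounds.

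Likeness between genes was measured as the root mean square difference of log2 levels over the 12 arrays, after each gene's mean was subtracted, among 9052 named genes. Of all pairs of the 6 genes, CUC2 and RAP2.6L were closest, at 0.81, with 6 named genes closer to CUC2 and 4 closer to RAP2.6L. CUC3 and ESR1 were farthest apart, at 3.79. CUC3 and ESR2 differed by 1.45, CUC1 and ESR2 by 1.63, and CUC1 and CUC2 by 2.02. The named genes most like CUC1 were NAC061 (0.82), ARI12 (0.82) and TEL2 (0.83), with ARI12 well above background on 6 of 12 arrays. CUC3 had MYB96 (0.49), then MYB117 (0.52) and MYB84 (0.53), which are LOF1 and RAX3 of the boundary list, and MYB117 was well above background on 5 of 12 arrays. For CUC2 they were CYP81G1 (0.66), UGT71B5 (0.69) and NAC016 (0.74), with UGT71B5 well above background on 9 of 12 arrays. ZFHD1 (1.26), GEX1 (1.28) and PRX52 (1.35) were most like ESR1, at larger differences than the best matches of the other members. GEX1 was well above background on 9 of 12 arrays. Over the arrays ESR1 also ranged most widely, by 8.90 on the log2 scale, against 4.64 for CUC3 and 7.82 for ESR2. ESR2 had UFO (0.95), a regulator of floral meristems seen well above background on 4 of 12 arrays, then ERL2 (1.07) and AAP7 (1.07). RAP2.6L was matched best by PA2 (0.58), MPL1 (0.59) and NAC019 (0.72).

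**Figure D4:**
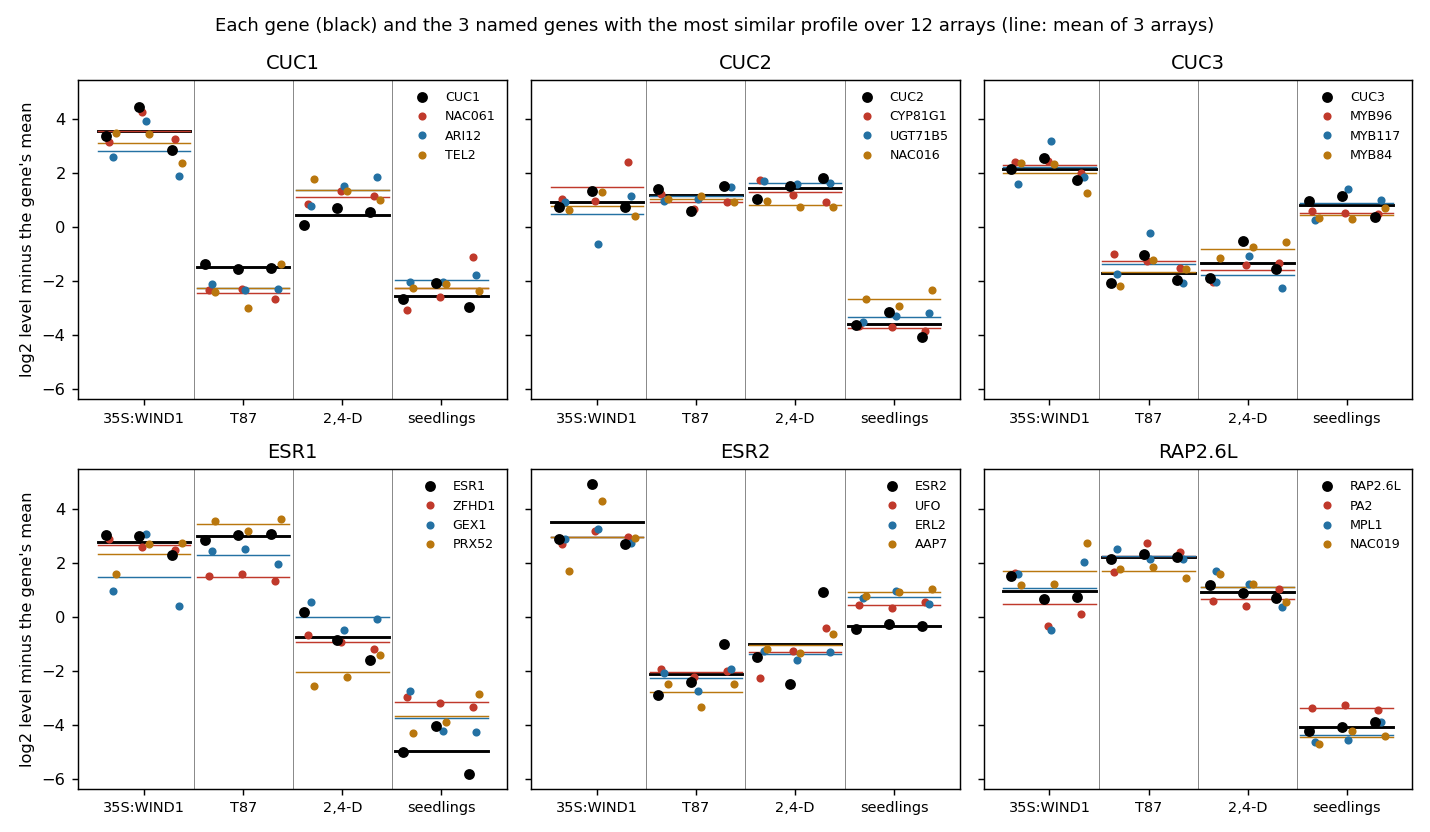
Log2 level minus the gene's own mean (vertical axis) on the 12 arrays by group for each of the 6 genes (black) and the 3 named genes with the smallest difference in profile (colours), with lines at the mean of 3 arrays. The genes most like CUC3 are lowest in T87 and 2,4-D-induced callus, and those most like RAP2.6L are low in the seedlings only.

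The protein-coding genes next to each of the 6 loci were looked at after the other values were seen, with 10 of 12 tested. Over the seedlings, 3 were higher and none lower in 35S:WIND1 callus, 2 higher and 2 lower in T87 callus, and 4 higher and 1 lower in 2,4-D-induced callus. Of all genes, 32.1%, 47.4% and 42.8% were called in these comparisons. PIRL3, next to ESR1, was higher by 1.43, 1.16 and 1.55 on the log2 scale in 35S:WIND1, T87 and 2,4-D-induced callus (adjusted p = 4.3e-05, 8.11e-05 and 1.24e-05), beside 7.72, 7.94 and 4.19 for ESR1. PBS3, next to RAP2.6L, was higher by 1.76 in 35S:WIND1 callus and 2.27 in 2,4-D-induced callus (adjusted p = 0.00471 and 0.000658). ATL8, next to CUC3, fell by 1.27 in T87 callus and was higher by 4.47 in 2,4-D-induced callus (adjusted p = 0.0116 and 3.94e-06), where CUC3 was lower.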

How the data were processed

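Total RNA was labelled with Cy3 and hybridised to 12 one-colour Agilent arrays, per the labels' protocols. The authors deposited scanner files of spot intensity on a linear scale, made with Agilent Feature Extraction 9.1.3.1 per the submitters' processing notes. Their deposited series table holds natural log values, which matched the log of the scanner's processed signal after a constant was taken off, 1 for each group. Its centring therefore differs between groups for a reason that is unknown, and it served only as an alternative. Its column medians were -1.93, -1.56 and -2.02 in 35S:WIND1 callus. T87 callus had -2.52, -2.40 and -2.57, the callus induced by 2,4-D had -2.49, -2.70 and -2.34, and the seedlings had -1.74, -2.08 and -1.81.

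Here the log2 processed signal minus each array's 75th percentile (1755 to 3716 units) was used, without 1417 control spots and 25 to 218 outlier spots per array. No spot was saturated. A probe was tested where all 3 arrays of at least 1 group were well above background (57.1% to 65.9% of spots were). Genes with several such probes took the brightest. Loci came from the scanner files, and names from a reference table of assembly TAIR10.1, which held 25449 of 25665 loci. No genome build is named in the labels or file headers used here.

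Comparisons were fitted in R 4.3.3 with the lmFit and eBayes functions of limma 3.58.1 on all 12 arrays without a block, with two-sided tests, and the script was tested on simulated data. "At least N-fold" sets the brighter group's mean against a floor in the dimmer group: per array, the gene's own signal or, if that is greater, the dimmest signal that was well above background. Where only some arrays were well above background, the fold rests in part on background. The number of arrays limits the precision.

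Members and lists were chosen with earlier results of these data known. All members were named, and of each list up to 4 called genes per comparison with the largest change, from which some were left out for length. ARR1, ARR10, ARR12, WIND1, TCP24 and other uncalled values were added beyond this rule. The 3 tested genes with a symbol and the smallest profile difference were named as most like each member. Replicate numbers equal slides. Deviations from group means of arrays on the same slide correlated between -0.137 and 0.122 over 18 pairs (2 over 0.1). On other slides the range was -0.164 to 0.187 over 36 pairs (3 over 0.1). With 3 arrays per group, these values do not settle whether the arrays were paired. Alternatives were normexp (offset 50, on the median spot signal, since no mean signal was used here; chosen after seeing the data), median scaling, quantile normalization, the deposited series values, other filters and probe rules, only the groups compared, the replicate block, and leaving out each array. Sequences and promoter motifs were not analysed here.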

Additional observations from a re-analysis of the deposited data

Results flagged for a closer look

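CUC3 had called changes of opposite direction against the seedlings in different calli, and the direct comparison of those calli was called as well. It was higher in 35S:WIND1 callus and lower in T87 callus than in the seedlings, and 35S:WIND1 callus exceeded T87 callus by 3.84 on the log2 scale (limma, adjusted p = 2.65e-05). It was also lower in 2,4-D-induced callus than in the seedlings, and 35S:WIND1 callus exceeded 2,4-D-induced callus by 3.47 (limma, adjusted p = 8.33e-05). All 3 arrays of 35S:WIND1 callus lay above all arrays of the other calli in both comparisons. The rise in 35S:WIND1 callus over the seedlings lost its call without 35S:WIND1 replicate 2 or seedling replicate 3. With normexp the 3 calls over the seedlings and that of 35S:WIND1 over 2,4-D-induced callus were lost.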

How the results depend on the processing

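The 6 genes in 6 comparisons gave 744 values under the alternatives, of which 712 kept their direction and side of the threshold, 18 lost the call, 2 gained it and 12 turned their sign. No called change turned its sign. The turned values were RAP2.6L in 35S:WIND1 over 2,4-D-induced callus (-0.0046 with normexp, -0.28 with median scaling, -0.23 without 35S:WIND1 replicate 1, -0.079 without 2,4-D replicate 3, and -0.23 to 0.19 over all arrays left out in turn), ESR2 in 2,4-D-induced callus over the seedlings (0.066 with median scaling, 0.053 without 2,4-D replicate 2, range -1.65 to 0.053), CUC2 in 35S:WIND1 over T87 callus (0.28 with the series values) and over 2,4-D-induced callus (0.15 with them). The others were ESR1 in 35S:WIND1 over T87 callus (0.29 with the series values, 0.016 without 35S:WIND1 replicate 3, range -0.35 to 0.016), CUC2 in T87 over 2,4-D-induced callus (0.0044 without T87 replicate 2, range -0.49 to 0.0044) and CUC3 there (0.032 without 2,4-D replicate 2, range -0.69 to 0.032). With normexp, the members called over the seedlings were 3 in T87 callus, 2 with 2,4-D-induced callus, and 2 in 35S:WIND1 over 2,4-D-induced callus. In 35S:WIND1 callus over the seedlings the calls of CUC3 and ESR2 were lost. The call of ESR2 was lost in 35S:WIND1 over T87 callus, and that of CUC1 in T87 over 2,4-D-induced callus. Calls over all genes fell as well, with counts given below. With a filter on all 12 arrays, 4 members remained testable, and 2 were called in 35S:WIND1 over 2,4-D-induced callus. Leaving out each array gave 5 to 6, 4 to 6 and 5 called members in 35S:WIND1, T87 and 2,4-D-induced callus over the seedlings. Of the 45 list genes, those called in the 3 calli over the seedlings, in 35S:WIND1 callus over each other callus (T87 first) and in T87 over 2,4-D-induced callus were 30, 36, 33, 26, 24 and 25. They were 13, 16, 16, 11, 10 and 14 with normexp, and 16, 21, 19, 15, 13 and 15 with the filter on all 12 arrays, which tested 28. Leaving out each array gave 27 to 31, 32 to 36, 31 to 33, 24 to 28, 20 to 24 and 25 to 28. The filter tested fewer genes, and the causes of the lower counts with the filter and with normexp were not tested. Over all genes, normexp called 2859, 5155, 4677, 3691, 2456 and 4242 in the same 6 comparisons. Without it the counts were 6847, 10117, 9144, 7865, 6075 and 8295. Median scaling moved the median of all genes to 0.50, 0.86 and 0.90 in the 3 calli over the seedlings, and the series values moved it to 0.56 in 35S:WIND1 callus. With the replicate block (also the slide), all 6 members were called in 35S:WIND1 callus over the seedlings, and no member's call changed in any comparison. Dim probes limit ESR2 in T87 and 2,4-D-induced callus and ESR1 in the seedlings.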
